A study of Mus musculus with 8 samples.

Results

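The genes described here are 53 genes of the centromere, the kinetochore and the spindle assembly checkpoint, together with the kinases, cyclins and spindle proteins that act with them. They were taken by name from a table of 38918 gene rows, by known function, and all 53 names had a row. The choice was made with earlier results of these data known, so the counts below describe the set. The material was BMiFLT3 (15-3), a mouse line labelled as pro-B cells that arose in a B-cell precursor acute lymphoblastic leukaemia (BCP-ALL), and its poly(A) RNA was sequenced. The study asked which genes respond to the transcription factor Klf2. Both groups were infected with retroviral constructs. The control group overexpressed blue fluorescent protein (BFP), the other group overexpressed Klf2, and the column names of both carry BFP, so that BFP may be on both constructs. The time from infection to harvest, any sort for infected cells, and the promoter that drove the constructs were not stated in the labels used here.

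Each group had 4 samples named after sequencing lanes, with 1 shared description. Counts of the 4 lanes differed by about sampling noise (chi-square per degree of freedom 1.29 in BFP and 1.27 in Klf2 on all exon reads, 1.03 in both on uniquely placed reads). The lanes were therefore summed and counted as 1 library per group, which leaves no replicate check and no p-value for any difference below. The BFP library held 30133978 exon reads and the Klf2 library 30835450. A level is given as CPM, the read count of a gene scaled to a common library total, after TMM scaling (a factor per library that sets most genes to no difference), and a ratio is the Klf2 CPM over the BFP CPM with a 95% exact interval. These reads carry no molecular identifiers, so the intervals cover counting error only, not the variation between cultures. Klf2 itself stood at 10.1 CPM in BFP and 113 CPM in Klf2, a ratio of 11.1 (9.93 to 12.6), in the direction of the labels. Of 11 pro-B markers with a row, 8 reached 1 CPM, among them Cd79a (962 and 903 CPM) and Pax5 (185 and 161 CPM). They did not all stay level: the surrogate light chain genes Vpreb1 and Igll1 had ratios of 1.49 and 1.43 and Cd79b one of 0.753, and their part in the results below was not tested. In contrast, Dntt, Rag1 and Rag2 had at most 9 reads in a library. Of the markers of other blood cells, 1 of 6 myeloid genes reached 1 CPM (Csf1r, 3.76 and 2.34 CPM), and none of 4 T-cell or 3 erythroid genes did. Either of 2 library kits may have served for each library, according to the protocols, so kit and construct cannot be told apart.

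A kinetochore is the protein assembly that ties a chromosome to the microtubules of the mitotic spindle. It is built on centromeric chromatin that holds the histone variant CENP-A, which a constitutive network of CENP proteins reads, and the outer layer, the KMN network, grips the microtubule. Kinetochores without attachment recruit checkpoint proteins that hold back the anaphase-promoting complex (APC/C), the ubiquitin ligase whose activator is Cdc20. Many of these genes are transcribed mainly in G2 and mitosis, through promoter elements named CHR and CCAAT, so their RNA is abundant in dividing cells such as B-cell progenitors.

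Nearly the whole set was higher in the Klf2 library. The ratio was above 1, with its interval, for 50 of 53 genes, against 37.1% of the 10850 measured genes, those that reached 1 CPM in 1 of the libraries or in both. All 53 genes were measured in that sense. It was at least 1.5 for 30 of 53, against 10.2% of all genes, and at least 2 for 4 of 53 (Cenpk, Hmmr, Cdc20 and Cdk1), against 2.45%. Only Dsn1 had an interval below 1 (37.3% of all genes), and none was 1.5-fold lower (13.9% of all genes) or 2-fold lower (5.67%). The median ratio of the 53 genes was 1.53, or 0.62 on the log2 scale, beside 0.996 over all genes. The middle part of the set lay close together, between ratios of 1.36 and 1.79 at the lower and upper quartile, with Dsn1 (0.671) and Cenpk (2.58) at the ends. Summed over the set, the level was 4410.4 CPM in BFP and 7228 CPM in Klf2, a ratio of 1.64. In bulk RNA, a larger share of cells in mitosis and more of these transcripts per cell cannot be told apart.

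**Figure D1:**
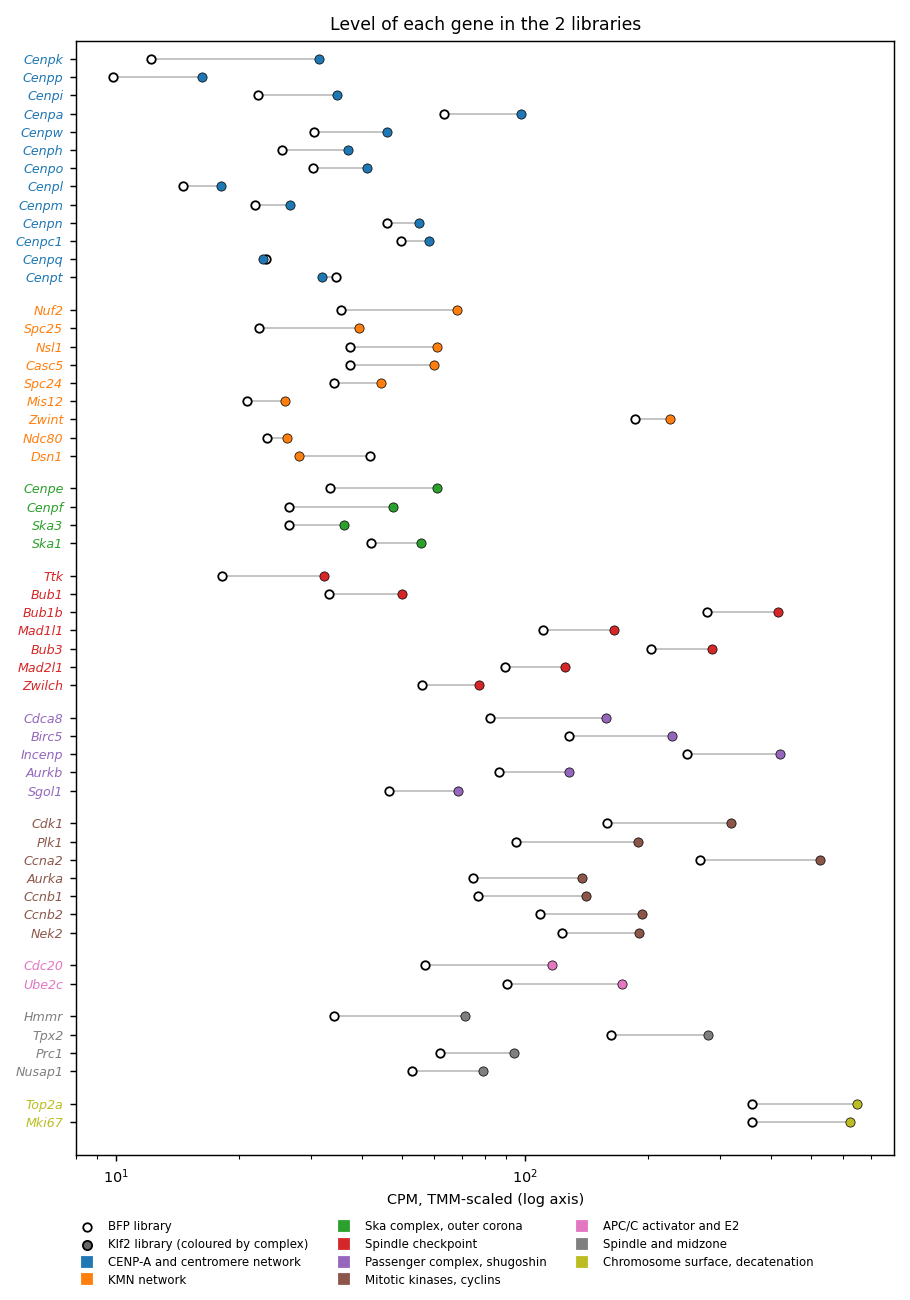
Level of each of the 53 genes in CPM (TMM-scaled, log axis), with the BFP library as open circles and the Klf2 library as filled circles coloured by complex. The filled circle lies to the right of the open one for all but Cenpq, Cenpt and Dsn1.

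The count depended on where the scale of the 2 libraries was set, although the side of 1 did not for most genes. Without the TMM factor, 24 of the 53 genes passed 1.5-fold and 1 passed 2-fold, and the median of all genes then lay at -0.10 on the log2 scale. The median log2 ratio of all genes depended on their level: with the genes split by level into 5 equal bins it went from -0.20 in the lowest to 0.17 in the highest. The share at least 1.5-fold higher was 13.4% in the lowest bin, which holds none of the 53 genes, 7.28% in the middle bin and 14.0% in the highest. The set was above the shares of the middle and the highest bin, with 12 of its 16 genes in the highest bin and 10 of its 19 genes in the middle bin. In the deposited RPKM values (exon reads per length of exon and per total gene reads of a lane, with no TMM factor), all 4 Klf2 lanes lay above all 4 BFP lanes for 46 of 53 genes (26.5% of all genes) and below them for Cenpt and Dsn1 (37.9% of all genes). The lanes of Cenpc1, Cenpm, Cenpq, Ndc80 and Mis12 overlapped. Lanes of a library share their RNA and their preparation, so this spread is that of sequencing alone.

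**Figure D2:**
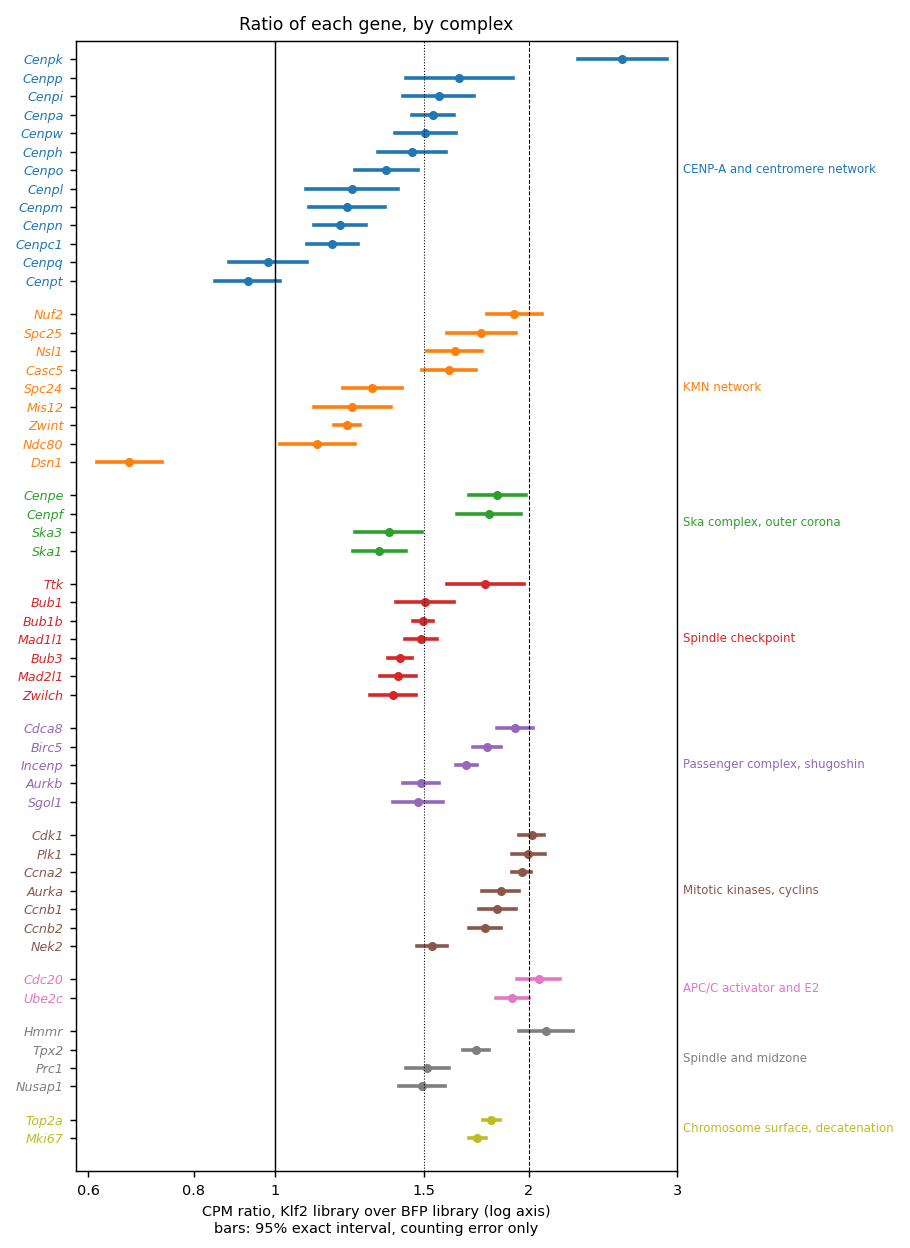
CPM ratio of each gene, Klf2 library over BFP library (log axis), grouped by complex, with bars for the 95% exact interval of counting error and lines at 1, 1.5 and 2. Kinases, cyclins and the APC/C genes lie between 1.53 (Nek2) and 2.05 (Cdc20), and the centromere and KMN genes run from 0.671 to 2.58.

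At the centromere, the interval lay above 1 for 11 of 13 genes (37.1% of all genes). The ratio reached 1.5 for 5 of them (10.2% of all genes), around a median of 1.35. Cenpa (chr5:30666777-30674827 in mm10, as are all gene positions here), the histone H3 variant that marks the centromere, stood at 63.3 CPM in BFP and 97.5 CPM in Klf2, a ratio of 1.54 (1.45 to 1.63). Cenpc1, whose protein CENP-C links that chromatin to the outer kinetochore, differed less, at 49.8 and 58.3 CPM and 1.17 (1.09 to 1.25). Cenpn, which reads the CENP-A nucleosome, and its partner Cenpl had ratios of 1.19 and 1.23. The intervals of Cenpc1 and Cenpn, both readers of the CENP-A nucleosome, lay wholly below that of Cenpa.

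Cenpk had the highest ratio of all 53 genes. It codes for a subunit of the CENP-H, CENP-I and CENP-K group, which helps to recruit the outer kinetochore, and lies at chr13:104228955-104249615. Its RPKM was 5.12, 6.03, 6.54 and 5.56 in the BFP lanes and 14.1, 14.8, 13.3 and 14.2 in the Klf2 lanes. The lanes of the 2 libraries were far apart, with 378 reads in BFP and 938 in Klf2, and a ratio of 2.58 (2.29 to 2.92). Of its exon reads, 82.2% were uniquely placed, and on those the ratio was 2.53. Its partners Cenph and Cenpi stood lower, at 1.45 (1.32 to 1.59) and 1.56 (1.42 to 1.72). Per length of transcript, Cenpk was at 0.466 of the Cenph level in BFP and at 0.828 of it in Klf2, with no overlap between the lanes of the libraries.

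The rest of the network was spread on both sides of these values. Cenpp and Cenpo, subunits of one further group of the network, had ratios of 1.65 (1.43 to 1.91) and 1.35 (1.24 to 1.48). Cenpq, of the same group, was level at 23.3 and 22.9 CPM, with a ratio of 0.980 and an interval from 0.882 to 1.09. Cenpm, which binds the CENP-I group, had a ratio of 1.22 with overlapping lanes. Cenpw and Cenpt, histone-fold partners that bind DNA together and reach out to the Ndc80 complex, parted: Cenpw was at 1.51 (1.39 to 1.64) and Cenpt at 0.927 (0.849 to 1.01). For Cenpt the RPKM was 17.7, 17.8, 16.6 and 16.2 in BFP and 15.1, 13.9, 15.1 and 15.5 in Klf2. These lanes do not overlap, but the interval of the scaled ratio holds 1, and the side of 1 depended on the scale. With the scale set on the lowest expression bin the Cenpt ratio was 1.07 and the Cenpq ratio 1.13, with it set on the highest bin they were 0.826 and 0.873, and without the TMM factor 0.871 and 0.921. The RPKM of Cenpt over that of Cenpw was 0.968 in BFP and 0.595 in Klf2.

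The outer kinetochore (KMN network) was uneven, with subunits of single complexes far apart. It had 8 of 9 genes with an interval above 1 (37.1% of all genes) and 1 below (37.3% of all genes). Of the 9, 4 were at least 1.5-fold higher (10.2% of all genes), with a median ratio of 1.30. The Ndc80 complex, a rod of 4 subunits, forms the main microtubule grip. Its gene Nuf2 (chr1:169497934-169531464) had an RPKM of 12.6, 11.5, 13.4 and 12.4 in the BFP lanes and 23.6, 22.6, 21.7 and 22.2 in the Klf2 lanes. No lanes overlapped, and the ratio was 1.92 (1.79 to 2.07). Ndc80 (chr17:71496100-71526857), which pairs with Nuf2 in the same head, had 9.49, 9.26, 9.85 and 8.58 in BFP and 9.95, 10.9, 9.24 and 9.17 in Klf2. Those lanes overlapped, and the Ndc80 ratio of 1.12 (1.01 to 1.24) was 0.999 with the scale set on the highest expression bin. The RPKM of Nuf2 over that of Ndc80 was thus 1.34 in BFP (1.24 to 1.45 over lanes) and 2.30 in Klf2 (2.08 to 2.43). The inner pair differed in the same manner, with Spc25 at 1.76 (1.60 to 1.93) and Spc24 at 1.30 (1.20 to 1.415).

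In the Mis12 complex, which joins the centromere to the Ndc80 rod, Dsn1 went the other way. Dsn1 (chr2:156995265-157007154) had an RPKM of 10.9, 11.4, 11.1 and 10.2 in BFP and 7.12, 6.45, 6.72 and 7.23 in Klf2. Every Klf2 lane was below every BFP lane, from 1299 and 838 reads, and the ratio was 0.671 (0.615 to 0.733). It lies just short of the limit for a gene 1.5-fold lower, and passed that limit without the TMM factor, at 0.630. Its partner Nsl1 was at 1.63 (1.52 to 1.76) and Mis12 at 1.23 (1.11 to 1.37). The RPKM of Nsl1 over that of Dsn1 was 0.886 in BFP and 2.15 in Klf2, and that of Mis12 over Dsn1 was 0.560 and 1.03. Casc5, the table's name for Knl1, the scaffold on which checkpoint proteins assemble, was at 1.61 (1.49 to 1.73). Zwint, its partner, had the highest level per length of the KMN genes and a ratio of 1.22 (1.18 to 1.26).

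**Figure D3:**
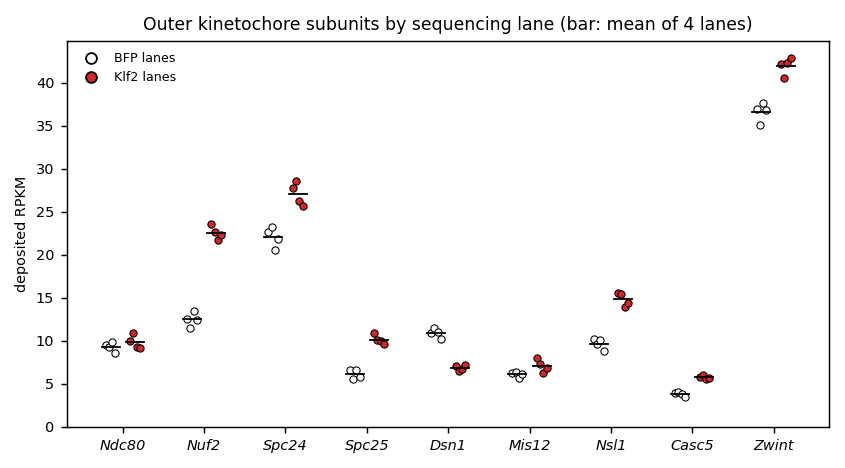
Deposited RPKM of the 9 KMN genes in each sequencing lane, with BFP lanes open, Klf2 lanes filled and a bar at the mean of 4 lanes. Nuf2 moves from 12.5 to 22.5, Ndc80 stays at 9.29 and 9.81, and Dsn1 is lower in Klf2 (10.9 and 6.88).

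Genes of the parts that track or move along microtubules had larger ratios in the corona than in the Ska complex. Ska1 and Ska3, which load on the Ndc80 complex and follow the ends of microtubules, had ratios of 1.33 (1.24 to 1.43) and 1.36 (1.24 to 1.49). Their RPKM ratio, Ska3 over Ska1, was 0.745 in BFP and 0.764 in Klf2, within the spread over lanes. Cenpe, the kinesin that carries chromosomes to the spindle equator, had an RPKM of 3.73, 3.70, 3.76 and 3.71 in BFP and 6.29, 6.31, 6.75 and 6.34 in Klf2, without overlap. The ratio was 1.83 (1.70 to 1.98) for Cenpe and 1.79 (1.64 to 1.96) for Cenpf, a large coiled-coil protein of the outer corona.

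The 7 spindle checkpoint genes were all higher and stayed in a narrow range. All 7 intervals lay above 1 (37.1% of all genes), and 2 genes were at least 1.5-fold higher (10.2% of all genes). The ratios ran from 1.38 (Zwilch) to 1.77 (Ttk) around a median of 1.49. Bub1b, which codes for the BubR1 subunit of the checkpoint complex that blocks Cdc20, was the checkpoint gene with the most reads, at 278 and 416 CPM. Its RPKM was 56.6, 56.8, 58.1 and 56.0 in BFP and 79.8, 82.6, 78.4 and 79.2 in Klf2. The lanes were well apart, with a ratio of 1.496 (1.46 to 1.54). Its paralogue Bub1, the kinase that docks on Knl1, was at a much lower level (33.1 and 49.9 CPM) and the same ratio, 1.51 (1.39 to 1.63). The RPKM of Bub1b over that of Bub1 was 8.55 in BFP and 8.49 in Klf2. Mad2l1, the protein that changes shape to bind Cdc20, and Mad1l1, its anchor on the kinetochore, had ratios of 1.40 (1.33 to 1.47) and 1.49 (1.43 to 1.56). Ttk, the Mps1 kinase that starts the checkpoint signal, had few reads (565 and 963) and a ratio of 1.77 (1.60 to 1.97).

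Bub3, the platform that brings Bub1 and BubR1 to the kinetochore, and Zwilch, a subunit of the Rod, Zw10 and Zwilch complex, are less certain. Only 27.9% of Bub3 reads and 71.3% of Zwilch reads were uniquely placed, so part of them may belong to copies elsewhere. The Bub3 ratio was 1.41 on all exon reads and 1.49 on unique reads, and that of Zwilch 1.38 and 1.36. Placement therefore moved neither across 1. In sum the checkpoint genes went from 789 CPM in BFP to 1151 CPM in Klf2.

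In the chromosomal passenger complex, which corrects wrong attachments, the regulatory subunits had larger ratios than the kinase. Aurkb, the kinase, was at 86.2 and 128 CPM, with a ratio of 1.49 (1.42 to 1.56). Incenp, its scaffold, was at 1.68 (1.64 to 1.73), Birc5 (survivin) at 1.78 (1.72 to 1.86) and Cdca8 (borealin) at 1.93 (1.83 to 2.02). The RPKM of Cdca8 was 13.4, 14.0, 14.3 and 13.7 in BFP and 24.6, 25.5, 24.6 and 25.7 in Klf2, with the lanes of each library close together and far from the other. Sgol1, the shugoshin that guards cohesin at the centromere, had a ratio of 1.48 (1.38 to 1.58). Together, 3 of the 5 genes were at least 1.5-fold higher (10.2% of all genes). The summed level of the 5 was 591 CPM in BFP and 1002 CPM in Klf2.

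Mitotic kinases and cyclins were the group of 5 or more genes with the highest median ratio, 1.85. All 7 were at least 1.5-fold higher (10.2% of all genes). Cdk1 (chr10:69336635-69352938), the kinase that drives entry into mitosis, had an RPKM of 40.8, 39.8, 40.5 and 39.6 in BFP and 75.3, 77.4, 75.1 and 76.5 in Klf2. The gap between the libraries was many times the spread over lanes, which is that of sequencing alone. The Cdk1 ratio was 2.01 (1.95 to 2.09). Its cyclin partners were Ccna2 at 1.96 (1.91 to 2.01), Ccnb1 at 1.84 (1.74 to 1.93) and Ccnb2 at 1.77 (1.70 to 1.85). Of these, Ccnb1 had only 53.5% of its reads uniquely placed, on which its ratio was 1.79, and Ccna2 had 83.2%, on which it was 1.98. Plk1, the polo-like kinase of mitotic entry and attachment, was at 1.996 (1.91 to 2.09), just under the 2-fold limit that Cdk1 just passed. Aurka, the kinase of the spindle poles, was at 1.85 (1.76 to 1.95), and Nek2, a kinase that separates the centrosomes, had the lowest ratio of the group, 1.53 (1.47 to 1.60). The RPKM of Aurka over that of Aurkb was 1.01 in BFP (0.927 to 1.09 over lanes) and 1.25 in Klf2 (1.19 to 1.35).

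The 2 genes that the checkpoint acts on or that execute its release were among the highest. Cdc20 (chr4:118432901-118437352), the APC/C activator that the checkpoint holds back, had an RPKM of 25.4, 26.2, 26.3 and 28.4 in BFP and 48.5, 51.4, 51.7 and 53.7 in Klf2. No lanes overlapped, and the ratio was 2.05 (1.94 to 2.18). Ube2c (chr2:164769898-164778822), the E2 enzyme that starts ubiquitin chains for the APC/C, was at 90.3 and 173 CPM, a ratio of 1.91 (1.83 to 2.003). Both ratios were above every ratio of the 7 checkpoint genes.

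Of the spindle proteins, Hmmr (chr11:40701395-40733422), which helps to organise spindle poles, had the second highest ratio of the set. Its RPKM was 5.28, 5.23, 5.59 and 5.84 in BFP and 10.71, 10.80, 11.03 and 10.72 in Klf2, without overlap, and its ratio 2.10 (1.95 to 2.26). Tpx2, which activates Aurka on the spindle, was at 1.73 (1.67 to 1.79). Prc1, which bundles the microtubules of the midzone, and Nusap1, a microtubule binder near chromatin, were at 1.52 (1.43 to 1.61) and 1.49 (1.40 to 1.59). Top2a (chr11:98992943-99024189), the topoisomerase that untangles sister chromatids, was at 359 and 648 CPM, a ratio of 1.805 (1.76 to 1.85). Mki67, the Ki-67 coat of mitotic chromosomes and a common mark of dividing cells, was at 359 and 623 CPM, a ratio of 1.74 (1.70 to 1.78).

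Promoter letters were also counted, and whether they bear on the ratios was not tested. RefSeq start sites (GRCm38.p6) were matched for 45 of the 53 genes, with windows of 250 bases before and 50 after the start. Those of Aurkb, Ccna2, Incenp, Nsl1, Ska1, Spc24, Tpx2 and Zwilch were not matched. The 150 bases before the start are printed 5′ to 3′ on the strand of the gene, as examples. They are given for 5 genes with high ratios, which are not the 5 highest, and for 3 outer kinetochore genes whose ratios lay far apart. Capitals mark the CHR letters (TTTGAA, or TTCAAA on the other strand) and the CCAAT letters (or ATTGG on the other strand).
Cdc20, chr4:118437344-118437493, minus strand: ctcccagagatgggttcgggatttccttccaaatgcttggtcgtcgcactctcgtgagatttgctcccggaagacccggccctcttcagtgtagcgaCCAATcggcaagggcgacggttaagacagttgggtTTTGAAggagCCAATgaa
Cdk1, chr10:69352913-69353062, minus strand: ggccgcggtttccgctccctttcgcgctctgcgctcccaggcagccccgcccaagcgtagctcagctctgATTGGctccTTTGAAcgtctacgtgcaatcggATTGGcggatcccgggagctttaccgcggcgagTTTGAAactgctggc
Ube2c, chr2:164769779-164769928, plus strand: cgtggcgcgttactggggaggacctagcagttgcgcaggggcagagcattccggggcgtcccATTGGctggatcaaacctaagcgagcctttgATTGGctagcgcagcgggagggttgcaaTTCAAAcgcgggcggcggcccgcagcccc
Top2a, chr11:99024190-99024339, minus strand: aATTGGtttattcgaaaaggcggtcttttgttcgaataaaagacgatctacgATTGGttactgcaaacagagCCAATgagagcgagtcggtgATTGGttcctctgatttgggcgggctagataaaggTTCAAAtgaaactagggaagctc
Hmmr, chr11:40733438-40733587, minus strand: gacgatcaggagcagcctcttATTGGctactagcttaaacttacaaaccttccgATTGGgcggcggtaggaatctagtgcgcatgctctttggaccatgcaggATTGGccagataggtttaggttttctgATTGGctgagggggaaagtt
Nuf2, chr1:169531465-169531614, minus strand: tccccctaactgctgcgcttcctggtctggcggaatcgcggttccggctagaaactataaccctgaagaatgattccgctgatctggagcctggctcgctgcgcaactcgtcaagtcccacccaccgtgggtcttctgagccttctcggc
Ndc80, chr17:71526858-71527007, minus strand: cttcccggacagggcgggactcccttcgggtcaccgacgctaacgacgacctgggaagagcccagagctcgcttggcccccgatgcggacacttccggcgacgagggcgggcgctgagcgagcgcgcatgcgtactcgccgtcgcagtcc
Dsn1, chr2:157007076-157007225, minus strand: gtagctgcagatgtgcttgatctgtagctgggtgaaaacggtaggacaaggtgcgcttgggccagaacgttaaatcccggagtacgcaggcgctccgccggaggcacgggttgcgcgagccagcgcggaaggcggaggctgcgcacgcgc
The Cdc20, Ube2c and Top2a windows each hold CHR letters shortly before the start, with the first base at position -18, -29 and -23, and Cdk1 holds them at -71 and -15. In Hmmr the CCAAT letters occur 4 times in the printed bases. None of the printed bases of Nuf2, Ndc80 and Dsn1 has either set of letters, although their ratios were 1.92, 1.12 and 0.671. After the start, in bases not printed, CHR letters begin at position 9 in Hmmr and at position 30 in Ndc80, and both count among the genes with CHR below. Of the matched genes not printed, Cenpk (ratio 2.58), Plk1 (1.996), Cdca8 (1.93), Aurka (1.85) and Ccnb1 (1.84) had no CHR letters in the 150 bases before the start. After the start, CHR letters begin at position 31 in Plk1, 14 in Cdca8 and 33 in Aurka, and these genes also count among those with CHR below. For Aurka, the bases after the start were not found near the beginning of a GENCODE transcript of the gene. Mki67 (1.74), Prc1 (1.52), Cenpw (1.51), Bub3 (1.41), Ska3 (1.36) and Cenpn (1.19) had them there in at least 1 window. The other genes not printed had none there, although some of them, such as Ccnb2, Ttk, Cenpf and Bub1b, had them elsewhere in the window.

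Over the whole windows, both strands, CHR letters were present for 23 of 45 genes (51.1%), beside 14.4% of the 7963 genes of at least 1 CPM with a window and 20.2% of all 27025 genes in the RefSeq table. CCAAT letters were present for 33 of 45 (73.3%), beside 43.7% and 41.1%. An E2F-type element (TTTNGCGC) was found for 2 of 45 (4.44%, beside 3.15% and 1.57%). A GC box (GGGCGG) was found for 33 of 45 (73.3%, beside 70.0% and 38.2%). The letters CCACACCC, of the CACCC type that Krüppel-like factors can bind, were found for 3 of 45 (6.67%, beside 4.51% and 4.09%). Among the 26 matched genes at least 1.5-fold higher, CHR letters were present for 17 (65.4%), and among the other 19 for 6 (31.6%). For CCAAT the shares were 84.6% and 57.9%, and the GC box, whose share over the set was near that of measured genes, had the same split, so this difference is not particular to CCAAT. Each motif was counted on its own, whether or not it overlapped another, and a match is a run of letters, not a measured binding site. The median share of G and C bases in the windows was 58% for the 45 genes and 61% for measured genes. The genes were chosen by function, and windows of the neighbouring gene groups were not counted as lists.

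Reads inside the gene but outside its annotated exons, which are mostly intronic, gave smaller ratios. All 53 genes had at least 50 such reads over the libraries, in sum 25931 in BFP and 34439 in Klf2. Their median log2 ratio was 0.37, beside 0.62 for the same genes on exon reads and a median near 0 over 9153 genes with as many such reads. The ratio was above 1 for 45 of 53 genes (49.6% of all genes), with the interval above 1 for 36 (29.9% of all genes) and below 1 for 3 (28.1% of all genes), and 16 were at least 1.5-fold higher (11.1% of all genes). The exon ratio exceeded the other ratio for 39 of 53 genes (52.4% of all genes). The count program's use of strand is not given, so reads of antisense or overlapping transcripts may be among either kind. Spans of 7 of the 53 genes (Cenpo, Cenpq, Mis12, Cdca8, Ccna2, Cdc20 and Nusap1) overlap another gene of at least 1 CPM, and the other 46 had median log2 ratios of 0.62 on exon reads and 0.38 outside exons.

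Single genes differed widely between the 2 kinds of read. For Mad1l1, the anchor of the checkpoint protein Mad2, the reads outside exons went from 1120 in BFP to 2762 in Klf2, a ratio of 2.57 (2.39 to 2.75), against 1.49 on exons. Top2a and Tpx2 were high on both, at 1.97 (1.81 to 2.14) and 1.90 (1.74 to 2.08) outside exons. By contrast, Cdc20 had 164 reads outside exons in each library, a ratio of 1.04 (0.833 to 1.30) against 2.05 on exons. Likewise Ttk (1.02) and Plk1 (1.10) had ratios near 1 outside exons, from 276 and 271 reads and from 92 and 97 reads. Bub1b was lower in Klf2 outside exons, at 0.762 (0.696 to 0.833) from 1157 and 847 reads, while its exon ratio was 1.496. The others with an interval below 1 were Cenpt at 0.736 (0.615 to 0.879) and Mad2l1 at 0.533 (0.299 to 0.923), the latter from 41 and 21 reads. For Cenpk the ratio was 1.39 (1.24 to 1.57) outside exons, and for Dsn1 it was 0.764 (0.552 to 1.05). Reads across exon junctions gave a median log2 ratio of 0.65 for the 53 genes and 0.05 for 8453 genes, and 51 of 53 were above 1 (54.2% of all genes).

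**Figure D4:**
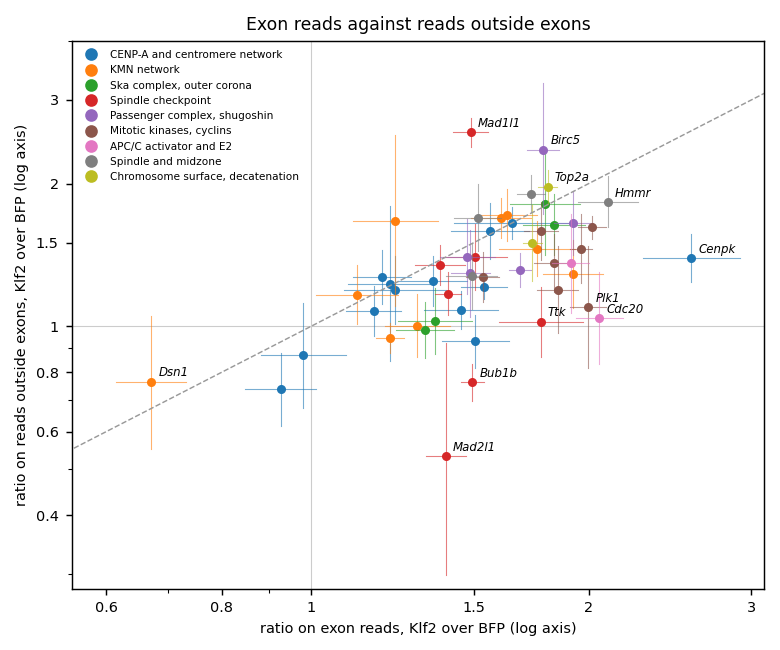
Ratio on exon reads (horizontal) against ratio on reads outside exons (vertical), Klf2 over BFP, log axes, with bars for 95% exact intervals of counting error and a dashed line of equal ratios. Most points lie below the line (39 of 53, against 52.4% of all genes), with Mad1l1 far above it and Cdc20, Plk1 and Ttk near 1 on the vertical axis.

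The same values in neighbouring gene groups show where the set stands. Among 21 further genes of the centromere, the kinetochore and CENP-A loading, the interval lay above 1 for 17 (37.1% of all genes). The ratio reached 1.5 for 8 (10.2% of all genes), around a median log2 ratio of 0.45. Among them Trip13, the ATPase that takes the checkpoint complex apart, was at 50.2 and 101 CPM, a ratio of 2.02 (1.90 to 2.15). Its adaptor Mad2l1bp, named here after its value was seen, had a ratio of 0.662 (0.581 to 0.753). Mad2l1bp was the only 1 of the 21 that was at least 1.5-fold lower with an interval below 1 (13.9% of all genes). Gsg2 had a lower ratio, 0.640, but from 39 and 24 reads, and its interval (0.368 to 1.09) held 1. Apitd1 (CENP-S) was at 1.90 (1.70 to 2.13). Sgol2 was at 1.81, but only 41.8% of its reads were uniquely placed and its ratio on those was 1.21.

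The core of the APC/C stood apart from its activator and its E2 enzyme. Of 17 core subunits and regulators, the interval lay above 1 for 14 (37.1% of all genes), and the median log2 ratio was 0.36. The ratio reached 1.5 for 2 of the 17, close to the share over all genes (10.2%). These were Fbxo5, the APC/C inhibitor Emi1, at 1.58 (1.52 to 1.65), and Ube2s, the chain-extending E2, at 1.57, with 11.5% of its reads uniquely placed and a ratio of 1.30 on those. Anapc4, a core scaffold subunit, was at 1.39 (1.28 to 1.51). Cdc20 and Ube2c, at 2.05 and 1.91, were above all of these.

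Among genes that hold or shape chromosomes, cohesin had 3 of 14 genes at least 1.5-fold higher and a median log2 ratio of 0.33, while condensin had 6 of 8 and 0.72. The share at least 1.5-fold higher was 10.2% over all genes. The cohesin genes were Espl1 (separase) at 1.57, Rad21 at 1.52 and Smc3 at 1.52. The condensin genes with the largest ratios were Ncapg at 2.04, Ncapd2 at 1.74 and Smc4 at 1.73. Mitotic entry and exit enzymes had 4 of 10 at least 1.5-fold higher, a median of 0.34 and 2 intervals below 1 (37.3% of all genes). Cdc25a was at 2.08, Cdc25c at 1.78 and Wee1 at 1.56. Of 7 genes for the factors that transcribe mitotic genes, 1 was at least 1.5-fold higher (10.2% of all genes). This was Mybl2, the B-Myb subunit of the activating complex at CHR elements, at 1.97 (1.88 to 2.06), while Rbbp4 was at 1.46 and Lin37 at 0.772 (0.690 to 0.862).

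Spindle and cytokinesis genes (7 of 12 at least 1.5-fold higher, median log2 ratio 0.66) and mitotic kinesins (8 of 12, 0.69) were near the values of the 53 genes. Over all genes, 10.2% were at least 1.5-fold higher. Aspm was at 1.94, Dlgap5 at 1.77 and Tacc3 at 1.75, and of the kinesins Kif20a was at 2.07, Kif2c at 1.79 and Kif20b at 1.78. DNA replication genes were as high as the mitotic set, with 22 of 32 at least 1.5-fold higher and a median log2 ratio of 0.65. Cdc6 was at 2.06 (1.96 to 2.17), Mcm10 at 2.03 (1.94 to 2.12) and Orc1 at 2.41, with 35.5% of Orc1 reads uniquely placed. With 1 library per group, no difference between these lists and the 53 genes was tested.

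**Figure D5:**
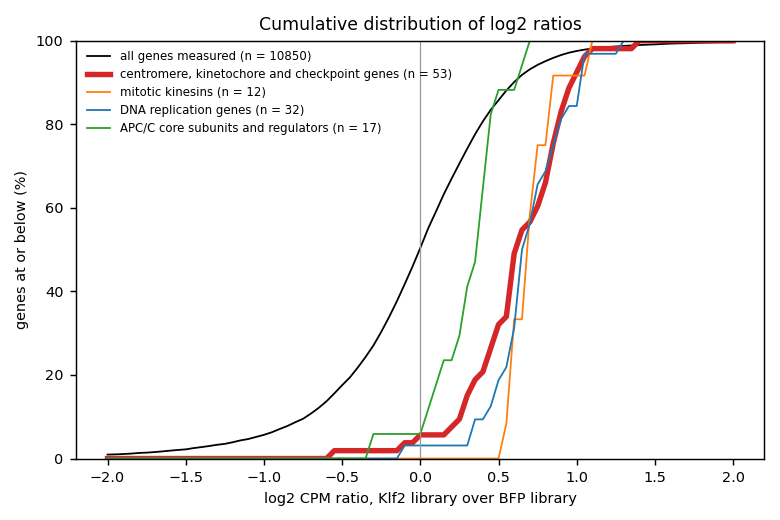
Share of genes (vertical, percent) with a log2 CPM ratio at or below the value on the horizontal axis, for the 53 genes, all measured genes and 3 other lists. At 0, 5.66% of the 53 genes and 50.4% of all genes have been passed. In their upper part the curves of the 53 genes and the replication genes run close together, with 75.5% and 75% passed at 0.85. The kinesin curve has reached 91.7% there. Between 0 and 0.85, the curves of the 53 genes, the replication genes and the kinesins lie to the right of the APC/C core subunits and regulators. At -0.35, 1.89% of the 53 genes and 0% of that APC/C list have been passed.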

How the data were processed

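Per the labels' protocols, poly(A) RNA was sequenced on an Illumina HiSeq instrument. The submitters' processing notes name CASAVA 1.8.2 and mm10, while the aligner, counting program, annotation and use of strand were not stated there. Counts of total exon, unique exon, total gene and junction reads per lane were deposited, per the file headers. The deposited RPKM, with decimal commas, is exon reads per exon length and per total gene reads of the lane (checked by recomputing, largest difference 0.0258).

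Counts of total exon reads were summed over the 4 lanes, since the chi-square of lanes per degree of freedom was under 1.5. The lanes held 7506567 to 7741626 exon reads, of which 83.2% (BFP) and 83.3% (Klf2) were uniquely placed. CPM used TMM factors from edgeR 4.0.16 (R 4.3.3), 1.03 for BFP and 0.969 for Klf2, and a count of 0 would allow 0.0965 and 0.100 CPM from 3 reads. Intervals are exact (Clopper-Pearson) at 95%, conditional on the summed reads. A gene was counted with at least 1 CPM in either library, and a fold count also required an interval that excluded 1. No test between the groups was possible with 1 library each. DESeq2 1.42.0 size factors were an alternative. Reads outside exons are total gene reads less total exon reads, with a minimum of 50 over both libraries. Promoter windows and their sequences come from RefSeq (GRCm38.p6).

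The genes, lists and alternatives were chosen with earlier results of these data known. All 53 genes are named, with Klf2 and, from each other list, the 3 genes with the largest absolute log2 ratio. Mad2l1bp, Gsg2, Cd79b, Csf1r and the other markers are named outside this rule.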

Additional observations from a re-analysis of the deposited data

How the results depend on the processing

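The limits below are those of scale and depth, and 1 library per group means that no setting bears on the variation between cultures. The median log2 ratio of the 53 genes, 0.62, stayed between 0.45 and 0.82 under every alternative run, and the count at least 1.5-fold higher, 30, between 21 and 43. The scale moved most. With the median of the lowest of 5 expression bins set to 0, the median was 0.82 and 19 genes were at least 2-fold higher. With that of the highest bin set to 0, the median was 0.45, 1 gene passed 2-fold higher, 1 passed 1.5-fold lower and 3 had an interval below 1, and the ratio of Ndc80 turned to 0.999. Without the TMM factor, 1 gene passed 2-fold higher, 1 passed 1.5-fold lower and 2 had an interval below 1. On ratios of mean deposited RPKM, 1 gene passed 2-fold higher and 1 passed 1.5-fold lower, and intervals were not computed there. With all gene reads, 2 genes had an interval below 1. Leaving out each lane in turn gave 0 to 1 genes at least 1.5-fold lower and 1 to 2 with an interval below 1. Uniquely placed reads, DESeq2 size factors, log2(CPM + 1) and other floors moved no count by over 1.5 times. No paired analysis was possible because the shared numbers are lanes of 1 library per group and no test was made. Depth limits the genes with few reads, of which the lowest had 306 in a library.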
